A study of Mus musculus and Homo sapiens with 22 samples.

Results

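The 6 genes described here, Mat2a, Mat2b, Mettl16, Ahcy, Mtr and Mtap, supply, recycle and sense S-adenosylmethionine, the methyl donor that the m6A writers use. They were taken by symbol from the 56196 mouse genes of the count files, and by the upper-case symbols from the human annotation. Poly(A)+ RNA was sequenced from mouse embryonic stem cells (mESC), 3 libraries of wild type (WT) cells and 3 of Mettl3 knockout (KO) cells, with 22746733 to 27254245 gene counts each. The WT and KO lines come from an earlier study. The labels name no clone or age, and both genotypes share a single culture protocol in them. m6A sites predicted from miCLIP2, an antibody crosslinking method that maps m6A to single nucleotides, were given for WT mESC, for commercial mouse heart RNA at inputs of 1000, 300, 100 and 50 ng, and for HEK293T, a human embryonic kidney line. Each list gives 1 score per site, and heart had 1 sample per input, so a site has no replicate spread here, and no list of sites in the KO cells was used.

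As background, Mat2a encodes the catalytic subunit of the methionine adenosyltransferase that makes S-adenosylmethionine, and Mat2b its regulatory subunit. After methyl transfer, Ahcy hydrolyses S-adenosylhomocysteine to homocysteine, Mtr (methionine synthase) turns homocysteine back into methionine with a folate methyl group and cobalamin, and Mtap returns the methylthioadenosine left by polyamine synthesis to the methionine pool. Mettl16 is an m6A methyltransferase that works apart from the Mettl3 complex: it methylates U6 snRNA and hairpins in the 3′ UTR of Mat2a mRNA, and through them ties Mat2a splicing and stability to the level of S-adenosylmethionine.

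Mettl16 methylates the hairpins at an adenosine in the sequence TACAGAGAA or TACAGAAAA, which lies outside DRACH, the pentamer (D is A, G or T; R is A or G; H is A, C or T) typical of Mettl3 sites. Searched on the coding strand of the last exon, the principal transcript of mouse Mat2a (APPRIS principal, GENCODE M21) and that of human MAT2A (GENCODE 44) held 6 of these motifs each, all 6 in the 3′ UTR. In the same order, 4 of the 6 windows of 21 nt had the same letters in mouse and human. The first and last pairs are shown, followed by the single predicted site of human MAT2A, with the motif or the pentamer in capitals.
Mat2a hairpin motif 1 (GRCm38, chr6:72434250-72434250, minus strand, the motif's adenosine): gtaggtTACAGAGAAgccttc
MAT2A hairpin motif 1 (GRCh38, chr2:85543815-85543815, plus strand): gtaggcTACAGAGAAgccttc
Mat2a hairpin motif 6 (GRCm38, chr6:72432953-72432953, minus strand): gtgtggTACAGAGAAgccagc
MAT2A hairpin motif 6 (GRCh38, chr2:85545125-85545125, plus strand): gtgtggTACAGAGAAgccagc
MAT2A predicted site (GRCh38, chr2:85543774-85543774, plus strand): aaatattgAAAGTgttagcct

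No predicted site of any list fell inside a hairpin motif, and none lay within 5 nt of one. The paper trained its site prediction on sites that fell in Mettl3 KO, with unchanged or higher peaks as negatives. Mouse Mat2a held no site at all. The lists therefore cannot say whether the hairpins were methylated. The HEK293T list held 1 site in MAT2A, in the 3′ UTR 5 nt after the last coding base (the stop codon is counted from 1) and 41 nt before the adenosine of hairpin motif 1. Its pentamer, AAAGT, lies outside DRACH and was found at this 1 site among the 36556 of the list. Its prediction score was 0.504, and 0.941% of the sites in the list scored lower. None of the 47 DRACH motifs of the MAT2A transcript was a predicted site.

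In mouse, Mat2a (chr6:72432799-72439558, minus strand) was at or near 0 in every library. The 3 WT libraries held 0, 0 and 1 counts, and the 3 KO libraries 0, 1 and 0. Both groups lie under a floor of 3 counts per library, so no fold change is given and the gene did not pass the low count filter. The mESC list and the 4 heart lists held 0 sites in Mat2a, although its transcript carries 48 DRACH motifs.

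The absence of counts was shared by the neighbours of Mat2a. Of the 17 protein-coding genes within 300 kb, 9 have at least 95% of their 84-nt exon windows (the RNA-seq read length) present a further time on a patch scaffold, a stretch of corrected sequence that the GRCm38.p6 release carries beside the chromosomes. All windows of Mat2a (100% of 3852) lie on such a scaffold of strain C57BL/6J, which matches chr6:72296717-72451483 in 99.9% of windows. Of these 9 genes, 8 were at 0 counts in all 6 libraries, and the ninth was Mat2a with a total of 2. None of the 8 genes beside the stretch was at 0. Their totals ran from 9 (Atoh8, a transcription factor) and 23 (Sh2d6) to 2532 for Capg, an actin capping protein, and 14765 for Tgoln1, a trans-Golgi protein. Of these 8 genes 2 had mESC sites and 5 had heart sites, against 0 of the 9 on the scaffold. These neighbours are named after their values were seen.

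**Figure D1:**
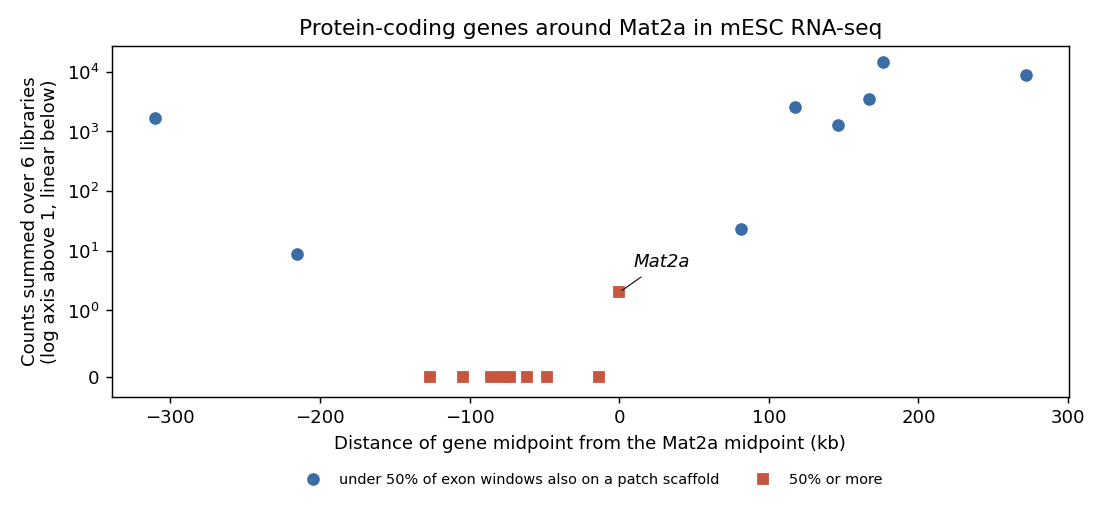
Counts summed over the 6 mESC libraries (y axis, log scale above 1 and linear below) against the distance from Mat2a in kb (x axis), with 1 point for each protein-coding gene. Squares mark genes with 50% or more of their exon windows also on a patch scaffold: 8 lie at 0 and Mat2a at 2, whereas the 8 genes beside them run from 9 to 14765.

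The same held across the genome. Of 250 protein-coding genes with at least 95% of exon windows on a patch scaffold, 242 (96.8%) had at most 18 counts over the 6 libraries, against 31.9% of the 19890 genes with no such window. None of the 250 genes had a site in the mESC or the heart 1000 ng list, against 30.3% and 38.8% of the 19890. In the mESC libraries 13.9% to 15.2% of reads were set aside as not mapped uniquely. Whether the scaffolds were part of the genome index used for mapping was not tested, and neither the counts nor the site lists say whether Mat2a RNA was present or methylated in mouse.

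The other 5 members were all counted in every library. Levels are given as CPM, counts scaled to a common library total after TMM normalisation. Per kb of exon (CPM per kb, all annotated exons of a gene), Ahcy and Mtap were highest in WT, at 32.7 ± 4.12 and 28.5 ± 3.27 (SD, n = 3), and their ranges overlapped. Mat2b followed at 14.2 ± 1.20, Mtr at 8.96 ± 0.757 and Mettl16 at 5.54 ± 1.31 CPM per kb, with no overlap between neighbours in this order. In KO the order was Mtap (30.99 ± 1.81), Ahcy (26.6 ± 4.16), Mat2b (9.44 ± 0.990), Mettl16 (7.59 ± 1.45) and Mtr (6.43 ± 0.173). In KO each gene's range overlapped that of the next except between Ahcy and Mat2b. Only 45.3% of the 84-nt exon windows of Ahcy occur once on the chromosomes, so its place in these orders is uncertain. Which annotated exons are used in these cells was not tested.

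Mettl3, the gene targeted in KO, had 26.4, 26.6 and 28.9 CPM in WT and 18.4, 22.6 and 16.9 CPM in KO. KO differed from WT by -0.50 on the log2 scale (SE 0.14; adjusted p = 0.0134, edgeR's quasi-likelihood test), above the threshold of 0.01 used for calls. Gene counts include reads outside a deleted part, and the allele was not checked further.

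Comparing KO with WT asks how the RNA level of the genes that feed and partner the main m6A writer differs between the lines. The loss of Mettl3 and other differences between the WT and KO lines cannot be told apart here. Mat2b and Mtr were lower in KO, and the other 3 tested members did not pass the test. With edgeR's quasi-likelihood test and a threshold of 0.01 on the adjusted p, 2 of the 5 tested members were called, where 29.7% of all 15731 genes tested were called. In these 2 members the WT and KO ranges were apart, which held for 56.1% of all genes tested. Cell number of a type and RNA per cell cannot be told apart in these bulk libraries.

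Mat2b, the regulatory subunit, had 66.1, 69.8 and 77.8 CPM in WT and 46.4, 42.7 and 52.5 CPM in KO. Every KO library lay under every WT library. The difference was called, at a log2 fold change of -0.59 (SE 0.12; adjusted p = 0.00232, edgeR). Without KO replicate 1 or KO replicate 2 the adjusted p was 0.0158 and 0.0107 (edgeR), above the threshold, and the log2 fold change stayed between -0.67 and -0.52 whichever library was left out.

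Mtr, methionine synthase, had 73.5, 71.8 and 83.7 CPM in WT and 53.2, 56.1 and 55.2 CPM in KO. Again all KO libraries were below all WT libraries. KO differed from WT by -0.48 on the log2 scale (SE 0.10; adjusted p = 0.00391, edgeR). This call was lost with library sizes alone as the scaling (adjusted p = 0.0220, edgeR), and when WT replicate 1, KO replicate 1, KO replicate 2 or KO replicate 3 was left out (adjusted p = 0.0119, 0.0281, 0.0116 and 0.0199, edgeR).

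Mettl16 had 79.5, 57.1 and 92.8 CPM in WT and 113.8, 82.0 and 118.8 CPM in KO. The lowest KO library lay under the highest WT library, so the groups overlapped, yet within each replicate number KO was the higher. The log2 fold change was 0.46 (SE 0.19) and was not called (adjusted p = 0.0692, edgeR). With the replicate number as a block it was 0.46 (SE 0.10) and called, with an adjusted p of 0.000565 (edgeR). The labels do not give this pairing, which was read from the same libraries. With the block 43.5% of all genes tested were called. Over the 6 libraries, the genes whose log2 CPM lay closest to that of Mettl16 were Mrpl45, a mitochondrial ribosomal protein (Pearson's r = 0.998), Sc5d, an enzyme of cholesterol synthesis (r = 0.998), and Hspa5, the chaperone BiP of the endoplasmic reticulum (r = 0.996), as a description that the libraries' shared genotype and depth enter.

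Ahcy had 32.8, 28.5 and 36.7 CPM per kb in WT and 28.5, 21.9 and 29.5 CPM per kb in KO. The groups overlapped, and the log2 fold change of -0.30 (SE 0.14, 95% interval -0.61 to 0.02) was not called (adjusted p = 0.110, edgeR). Mtap had 82.1, 91.0 and 103.1 CPM in WT and 105.3, 93.7 and 100.9 CPM in KO. These groups overlapped as well, with a log2 fold change of 0.12 (SE 0.11, 95% interval -0.13 to 0.37) and an adjusted p of 0.415 (edgeR).

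**Figure D2:**
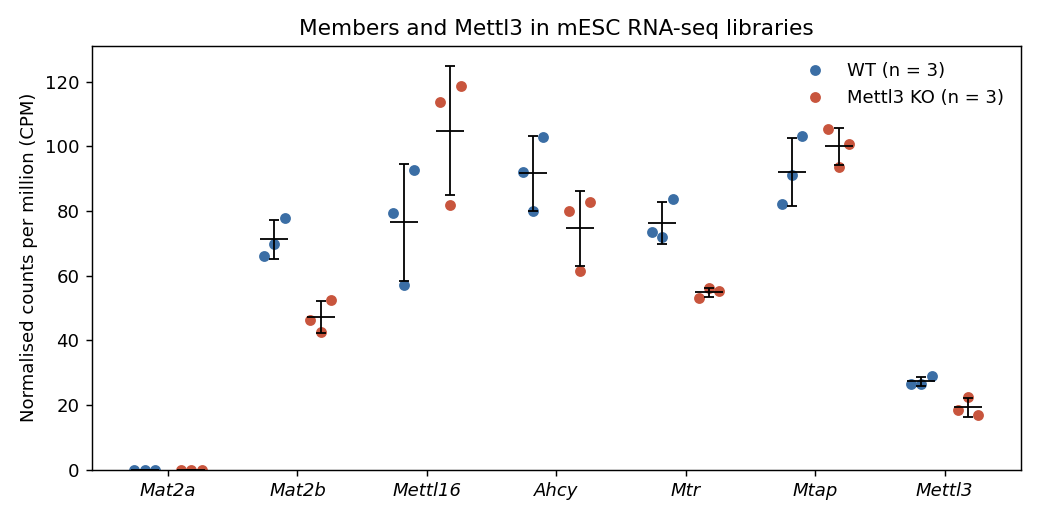
Normalised CPM (y axis) of the 6 members and of Mettl3 in 3 WT and 3 KO mESC libraries. Points are libraries, and the bars give the mean and SD. Mat2b and Mtr separate by genotype, Mettl16, Ahcy and Mtap overlap, and Mat2a lies at 0.

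The value of Ahcy depends on near-identical copies. Of its 84-nt exon windows, 45.3% occur once on the chromosomes, against 100% for Mat2b, Mtr and Mtap. The annotated gene Gm4737 (chr16:46152985-46155077) matches the Ahcy transcript at 99.7% identity over 2083 nt, and the processed pseudogene Gm9826 at 99.2% over 1299 nt. Gm4737 had 21.9, 18.8 and 24.5 CPM in WT and 0.279, 0.203 and 0.554 CPM in KO, a fold of 62.5 with the higher level in WT (log2 fold change -5.97, SE 0.29; adjusted p = 1.19e-06, edgeR). It is reported as uncertain, since reads that fit both sequences alike were set aside as not unique, leaving only reads that tell them apart. Whether the WT and KO lines differ at this locus was not tested. With Gm4737 and Gm9826 added to Ahcy, the sum reached 113 ± 14.4 CPM over the WT libraries and 75.1 ± 11.8 over the KO libraries (SD, n = 3), of which the copies made up 19.2% and 0.495%. The log2 fold change of the sum was -0.60 and was called (adjusted p = 0.00651, edgeR).

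The wider list of the methyl cycle held 68 genes, of which 63 passed the filter on low counts. Of these 25 (39.7%) were called, 11 higher and 14 lower in KO, beside 2687 higher (17.1%) and 1982 lower (12.6%) genes among all tested. With the replicate number as a block, the same 25 and a further 9 genes of the list were called, 14 higher and 20 lower (54.0%), beside 43.5% of all genes tested. The median log2 fold change of the list was -0.06, and that of all genes tested -0.02. With library sizes alone the split was 13 higher and 9 lower in the list and 2937 higher and 1199 lower among all genes, and the median of all genes moved to 0.08. Without KO replicate 1, 12 genes of the list and 2761 of all genes were called, without KO replicate 3, 15 and 3109, and without WT replicate 1, 16 and 3108.

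Of the 10 genes of methionine remethylation and cobalamin supply, 6 were higher, 1 was lower and 3 were not called, the same counts with and without the block. This and the group counts that follow stand beside 29.7% of all genes called without the block and 43.5% with it. The groups are small, and none was tested against that share. The single gene that fell was Mtr, and in the group of synthesis and hydrolysis 1 of 6 tested genes was called, Mat2b. Bhmt and Bhmt2, which remethylate homocysteine with betaine or S-methylmethionine in place of folate, rose from 9, 17 and 5 counts to 69, 103 and 48 (Bhmt, log2 fold change 2.57, SE 0.40) and from 40, 35 and 37 to 128, 153 and 114 (Bhmt2, 1.55, SE 0.24). Both are low in all libraries. Lmbrd1, which exports cobalamin from the lysosome, rose by 1.10 (SE 0.14), and Mmadhc, which directs cobalamin to its enzymes, by 0.98 (SE 0.11) on the log2 scale.

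In the folate cycle, 4 of 12 tested genes were lower and 2 higher, and with the block 6 were lower and 2 higher. Aldh1l1 and Aldh1l2, the cytosolic and mitochondrial 10-formyltetrahydrofolate dehydrogenases, had log2 fold changes of -2.35 (SE 0.18) and -1.82 (SE 0.36). Shmt2, the mitochondrial serine hydroxymethyltransferase, was at -0.75 (SE 0.18), whereas Slc19a1, the reduced folate carrier, was at 1.04 (SE 0.13). In transsulfuration and small-molecule methylation 2 of 6 tested genes were lower: Cbs, which commits homocysteine to cysteine synthesis, at -1.46 (SE 0.16), and Gnmt, a glycine methyltransferase that consumes S-adenosylmethionine, at -1.94 (SE 0.26). No tested gene of that group was higher, and with the block 3 were lower.

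In methionine salvage 1 of 5 genes was lower, namely Mri1, the isomerase that acts directly after Mtap, at -1.47 (SE 0.13). In polyamine synthesis 1 of 8 tested genes was higher and 2 were lower, with the largest change in Sat1, a polyamine acetyltransferase (-0.58, SE 0.11). With the block 2 genes of the salvage group were lower, and 2 genes of polyamine synthesis were higher and 2 lower. Among the partners of METTL16, MAT2A splicing and U6 snRNA, Ythdc1, the nuclear m6A reader, was higher (0.84, SE 0.14), Nudt21, the CFIm25 subunit of the cleavage factor, was lower (-0.71, SE 0.11), and the other 4 were not called. With the block 3 of these 6 were higher, Mettl16 among them, and 1 was lower. Nudt21 is named after its value was seen. Of the 5 genes around PRMT5, the enzyme that methylthioadenosine inhibits, 1 was higher, Wdr77 (0.50, SE 0.10). Of 5 genes of methionine uptake and sensing 2 were lower, with the largest change in Slc7a5, a large neutral amino acid transporter (-0.64, SE 0.16). With the block 1 gene of the PRMT5 group was higher and 1 lower, and 3 genes of uptake and sensing were lower.

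**Figure D3:**
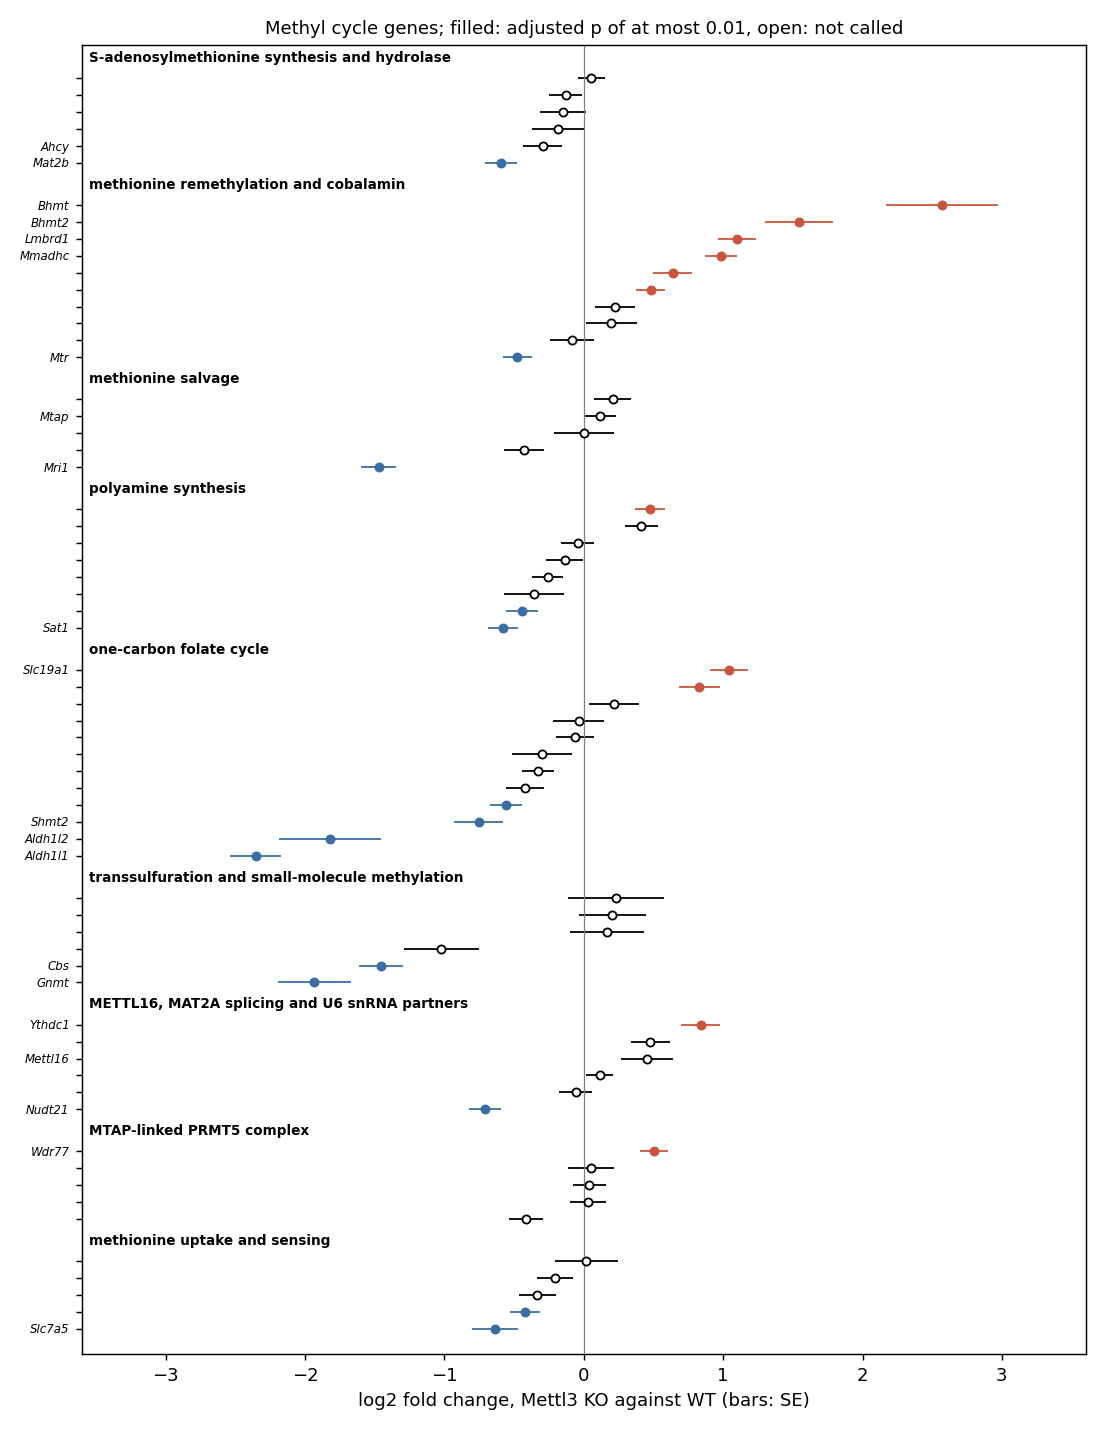
Log2 fold change of KO against WT (x axis) for the 63 tested genes of the methyl cycle list, by group, with the SE as bars and the genes named in the text labelled. Filled points passed the threshold of 0.01 (edgeR), red higher and blue lower in KO: 11 and 14 genes. Mtr is the single blue point among the remethylation genes.

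Summed over 10 markers, pluripotency genes had 4767 to 4853 CPM in WT and 3846 to 4011 CPM in KO. All 10 were tested, and 3 were called, all lower in KO: Dppa5a (957 and 298 CPM on average in WT and KO), Tfcp2l1 (892 and 595) and Utf1 (41.8 and 17.6). Dppa5a and Tfcp2l1 carry the fall of the sum. Esrrb, at 527 and 709 CPM, had a log2 fold change of 0.43 that was not called (adjusted p = 0.0106, edgeR), and the other 6, among them Sox2 and Nanog, were not called. The 10 markers of feeder fibroblasts summed to 10.4 to 15.2 CPM in WT and 13.5 to 15.1 CPM in KO. Of the 4 that were tested, Thy1 was higher (2.66 and 6.08 CPM) and Pdgfrb lower in KO (7.56 and 4.10 CPM), so the sum hides opposite changes of low genes, and Twist1 (log2 fold change 1.26, adjusted p = 0.0145, edgeR) and Col1a1 were not called. The markers in these sentences are named after their values were seen. No marker of either list was at 0 in all libraries. The part of these markers in the changes above was not tested. Slc25a32, a mitochondrial folate carrier of the folate group, was at 0 counts in all libraries, and 100% of its exon windows lie on a patch scaffold. It is named after its values were seen.

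Predicted sites were found in 5 of the 6 members in mESC. The mESC list of 25456 sites held 15 in the members and the heart 1000 ng list of 46421 held 16, at 20 different nucleotides over all mouse lists. None lay in an intron. The HEK293T list of 36556 sites held 25 in the human genes, none of them in an intron either. Sites outside DRACH made up 4 of 15, 4 of 16 and 3 of 25. In the whole lists 92.9%, 93.1% and 89.3% of sites lay in DRACH.

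Mettl16 (chr11:74770830-74828525, plus strand) held all 4 of the heart sites outside DRACH and 3 of the 4 in mESC. The 5 nucleotides are shown 5′ to 3′ with the pentamer around the predicted adenosine in capitals, since 4 of them break the motif, and with the closest windows of the human METTL16 transcript where at least 17 of 21 bases were the same.
Mettl16 chr11:74817223-74817223 (GRCm38, mESC): gccatagaAAACTcttggatt
METTL16 closest window, no site in HEK293T: gccatagaAAACTcctggatt
Mettl16 chr11:74817298-74817298 (mESC and heart): gctcctgaGGACGtcatctta
METTL16 closest window, no site in HEK293T: gctcctgaGGACGtcattcag
Mettl16 chr11:74817455-74817455 (mESC and heart): gccagaagTTACTgtgccagg
Mettl16 chr11:74817562-74817562 (mESC and heart): ggagcccaGGACGgagaggct
METTL16 site chr17:2420193-2420193 (GRCh38, minus strand, HEK293T): ggagcccaGGACCaagaggct
Mettl16 chr11:74817608-74817608 (heart): gggcggccGGACGctacctgt
METTL16 closest window, no site in HEK293T: gagtggccGGACAgtacctgt

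All 5 lie in the coding part of the last exon (exon 10 of 10) of the principal transcript, at positions -532 to -147 from the last coding base, and other annotated transcripts place them in a 3′ UTR or a noncoding exon. The annotated 3′ UTR of the transcript, 10770 nt long with 227 DRACH motifs, held 0 sites in every mouse list. How much of it is transcribed in mESC or heart was not tested. In mESC the scores of the 4 sites were 0.802, 0.839, 0.530 and 0.725 in order along the gene, and 65.4%, 76.0%, 4.56% and 44.6% of the list scored lower. Hence the 2 GGACG sites sat in the middle and upper part of the list and the TTACT site near its lower end. In the heart 1000 ng list, where scores serve only to rank, the order differed: 70.9% of sites scored lower than the TTACT site, and 43.9%, 82.7% and 11.5% lower than the 3 GGACG sites.

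GGACG made up 2.11% of the mESC list and 2.25% of the heart 1000 ng list, and TTACT 0.141% and 0.129%. Of 2579 genes with at least 4 exon sites in mESC, 2, Mettl16 among them, had 75% or more outside DRACH. In heart, of 4440 such genes, 2 had all sites outside DRACH, and Mettl16 was again 1 of them. These shares are descriptions, as the sequence is an input of the prediction.

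In HEK293T, METTL16 held 6 sites, all in DRACH, 2 in the coding part of the last exon and 4 in the 3′ UTR. Only the pair at chr11:74817562 and chr17:2420193 matched in at least 80% of 21 bases among all members, at 19 of 21. Counted from 1 at the 5′ end of the window, the human bases differ by G13C and G14A, and the human pentamer GGACC lies in DRACH. The human site had a score of 0.508, and 1.73% of its list scored lower.

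Mat2b (chr11:40679314-40695203, minus strand) held 2 sites in mESC. The site at chr11:40680092, in the coding part of the last exon at -65 nt from the last coding base, was also in the heart lists at 1000 and 300 ng. The second, 262 nt into the 3′ UTR, was found in mESC. MAT2B held 0 sites in HEK293T. At the position of the shared mouse site the human transcript differs by C12T, which leaves no DRACH motif, as the 2 windows show.
Mat2b chr11:40680092-40680092 (GRCm38, minus strand): accatttcGAACTggaatcaa
MAT2B same distance from the stop, no site: accatttcGAATTggaatcaa

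Mtr (chr13:12182712-12258113, minus strand) held 3 sites in mESC, 1 each in the 5′ UTR, the coding sequence and the 3′ UTR, and 6 in heart at 1000 ng, 1 in the coding sequence and 5 in the 3′ UTR. The coding site lies at -1 nt from the last coding base, where the last base of its pentamer is the first of the stop codon. It was shared by mESC and heart, as was the 3′ UTR site at 166 nt, the single Mtr site at 300 ng. MTR has the same pentamer at the same place, with no predicted site there.
Mtr chr13:12187009-12187009 (GRCm38, mESC and heart, A at -1): tatgacacAGACTgatccctc
MTR same position from the stop, no site: tatgatacAGACTaacttttt
Mtr chr13:12257898-12257898 (mESC, 5′ UTR): cttgaggaGGACTcttggcgg
MTR chr1:236795450-236795450 (GRCh38, plus strand, HEK293T, 5′ UTR): gacaccaaGGACTggccgggt

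Both species therefore had 1 site in the 5′ UTR of methionine synthase, at transcript positions 198 in mouse and 159 in human, each in a GGACT pentamer with different flanks. The human gene carried 9 sites, the most of any member: 1 in the 5′ UTR, 5 between 274 and 598 nt after the last coding base, and 3 between 6076 and 6105 nt. The highest score among them was 0.955, at chr1:236903739, and 98.9% of the HEK293T list scored lower. Of genes with exon sites in HEK293T, 15.5% had 9 or more.

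Mtap (chr4:89137122-89181081, plus strand) held 5 sites in mESC and the same 5 in heart at 1000 ng. All lie in the 3′ UTR, 113 to 600 nt after the last coding base, and all are in DRACH. The site with the highest prediction score in mESC and the site that was still found at 300 ng are shown.
Mtap chr4:89179800-89179800 (GRCm38, plus strand, score 0.973): tcgagatgGGACTgtgtgatt
Mtap chr4:89180103-89180103 (also in heart at 300 ng): gacttagaGAACTttgaaact
The first scored above 99.4% of the mESC list. MTAP in HEK293T held 2 sites, 1517 and 3423 nt after the last coding base, in a span shared with another annotated gene, and neither matched a mouse window.

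Ahcy (chr2:155059310-155074497, minus strand) held 1 site in mESC and 0 in heart, with 46 DRACH motifs in its transcript. The site lies 273 nt into the 3′ UTR in GGATG, outside DRACH, with a score of 0.551. Gm4737 also held 1 site in the mESC list, at the same place of the same sequence, with a score of 0.592. GGATG was found at 14 sites of the mESC list, and these 2 are among them.
Ahcy chr2:155060179-155060179 (GRCm38, minus strand): ctgaggctGGATGttgctagt
Gm4737 chr16:46153444-46153444 (minus strand): ctgaggctGGATGttgctagt

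Which of the near-identical loci the reads came from was not tested. Human AHCY held 7 sites, 3 in the coding sequence and 4 in the 3′ UTR. A neighbouring pair in exon 1, at chr20:34303259 and chr20:34303263, lie just after the start codon. A single AHCY site, at chr20:34280921 in CGACT, was outside DRACH. The 4 sites of the 3′ UTR lie in a span shared with another annotated gene.

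**Figure D4:**
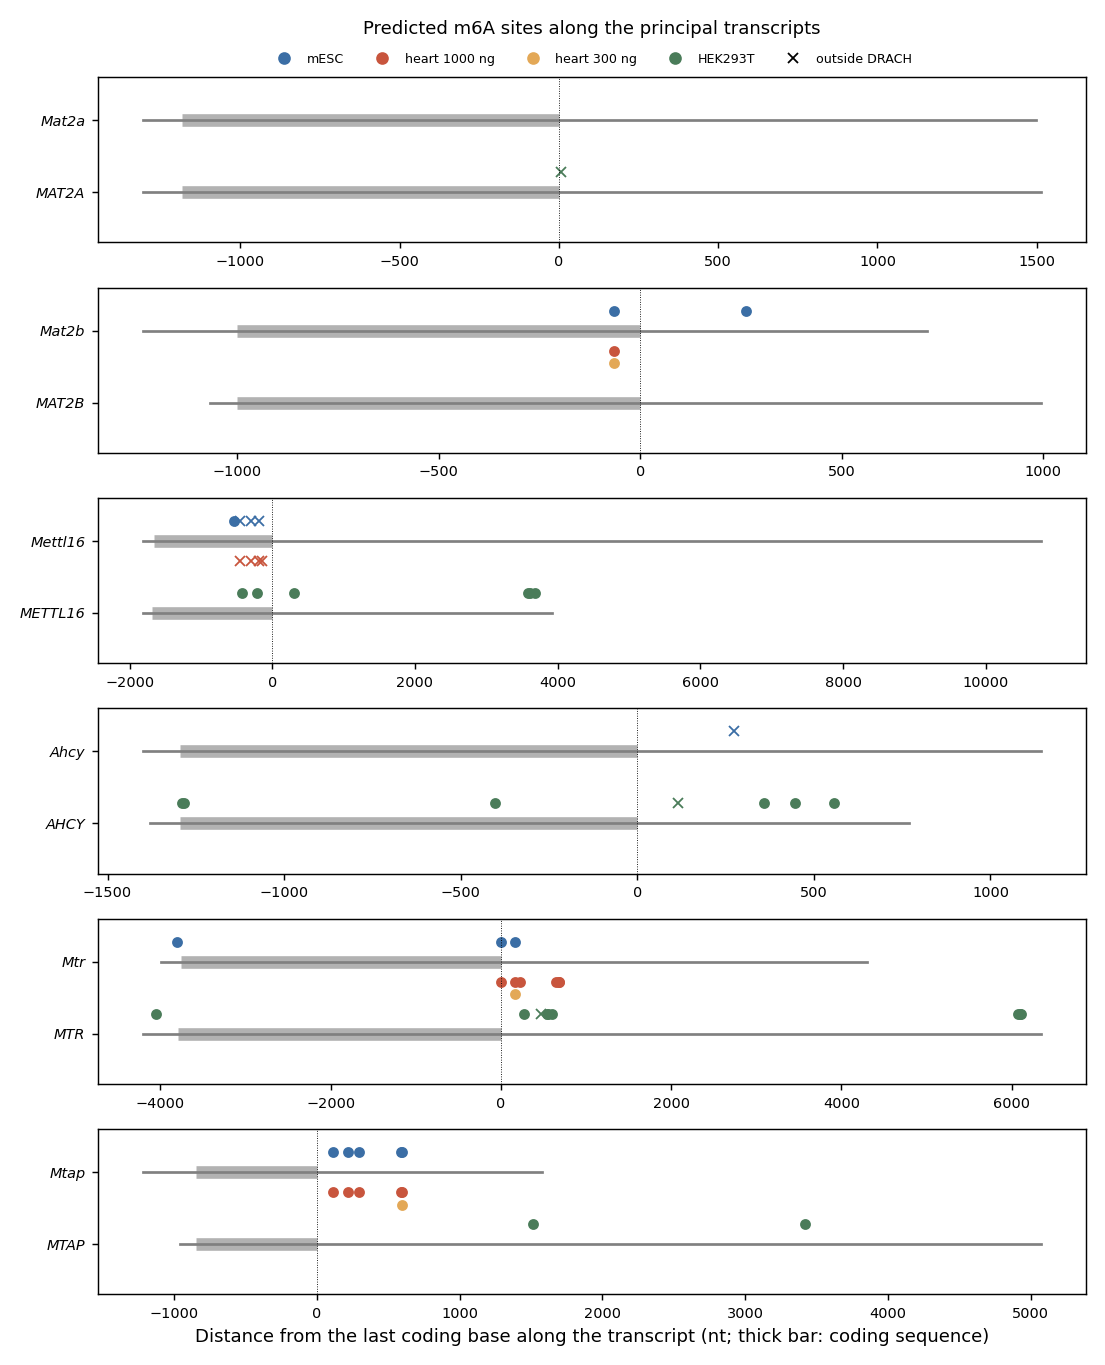
Predicted m6A sites of the members along their principal transcripts (x axis, nt from the last coding base; thick bar, coding sequence). Mouse genes are drawn above their human counterparts, colours give the list, and crosses mark sites outside DRACH. Mouse Mettl16 has crosses before the stop codon, Mtap has the same 5 sites in mESC and heart, and mouse Mat2a has none.

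Across the members, 11 nucleotides were shared by mESC and heart 1000 ng, 73.3% of the 15 in mESC and 68.8% of the 16 in heart. Over the whole lists 15166 sites were shared, 59.6% and 32.7%. At lower input the lists were shorter. The heart 300 ng list of 8845 sites held 3 member sites, 1 each in Mat2b, Mtr and Mtap. All 3 were also found at 1000 ng, where they made up 18.75% of the 16 member sites. In the whole lists 8257 sites were shared by 300 ng and 1000 ng, 93.4% of those at 300 ng and 17.8% of those at 1000 ng. The 100 ng and 50 ng lists, of 1112 and 248 sites, held 0 member sites.

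In the wider methyl cycle list, 34 of the 63 tested genes (54.0%) had an exon site in mESC and 31 (49.2%) in heart at 1000 ng, beside 42.0% and 50.2% of all genes tested.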

How the data were processed

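Gene counts were deposited by the authors as whole numbers: 84-nt reads were mapped with STAR 2.6.1b to GRCm38.p6 and counted on the reverse strand with HTSeq 0.12.4 (GENCODE M23). The authors' miCLIP2 reads were mapped with STAR 2.7.3a, of which uniquely mapping ones were kept; peaks found in at least 2 replicates (heart had 1 sample per input) were given to m6Aboost. For mESC and HEK293T the deposited score is that of m6Aboost, 0.5 or higher. The scale of the heart scores is not stated, and they were used only to rank. Sample titles give the lower heart inputs in µg, the list names and methods in ng, which was used. The annotation used here was GENCODE M21 and 44.

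The members and gene lists were chosen with earlier results of these data known. Lines that name no gene were left out, chiefly no feature (17.6% to 22.6% of all reads listed) and not unique (13.9% to 15.2%). KO was compared with WT by edgeR 4.0.16 under R 4.3.3 (low counts removed by filterByExpr, TMM, quasi-likelihood test, Benjamini-Hochberg over 15731 genes). Same-numbered WT and KO libraries deviated together (correlations of 0.122, 0.464 and 0.303 over genes), whereas differently numbered pairs ran from -0.34 to 0.11, the highest (WT 3 with KO 1, 0.110) close to that of pair 1. As all same-numbered values passed 0.1, the numbers were taken to pair the libraries, and the blocked value is given where it changes a call. This pairing is read from the data, not from the labels. Fits were tested on simulated counts. Genes in the text are the members, Mettl3, near-identical copies (at least 95% identity over 200 nt), the 6 highest and 6 lowest called list genes, the largest change of each group, and the 3 genes closest to Mettl16. Exceptions are named as such, and some genes of the list are not reported here by name. Alternatives included DESeq2 1.42.0, other scalings and filters, and each library left out. Genome windows came from the RefSeq GRCm38.p6 and UCSC hg38 sequences.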

Additional observations from a re-analysis of the deposited data

How the results depend on the processing

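Of the members, Mtap kept its side of the threshold in all 14 alternatives, and all 5 tested members kept their direction in each. Mat2b kept its call in 12 of 14. Leaving out 1 library at a time gave log2 fold changes of -0.67 to -0.52 for Mat2b and -0.53 to -0.41 for Mtr, with adjusted p of up to 0.0158 and 0.0281 (edgeR), 0.27 to 0.62 for Mettl16 (the lowest without WT replicate 2, never called), -0.39 to -0.16 for Ahcy (never called), 12 to 25 called genes of the methyl cycle list (7 to 13 higher, 5 to 13 lower) and 2761 to 5412 of all genes (955 to 2372 lower). Mettl16 was called with no filter on low counts (0.49, adjusted p = 0.001003) and with the replicate block (0.46), Ahcy with its copies added (-0.60), and Mtr was not called with library sizes alone (-0.37), where 9 list genes and 1199 of all genes were lower. The replicate block changed no other member's call, and 3143 genes were lower with it. At an adjusted p of 0.05, 7336 genes were called, 3469 of them lower. The cause of these shifts was not tested.

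Of the member sites, 7 in mESC, 1 in heart at 300 ng and 15 in HEK293T scored at or above the median of their list. With RRACH (R is A or G) in place of DRACH, 6 HEK293T sites and 1 at 300 ng were outside the motif. With windows of 11 nt, 5 mouse sites matched a human one, against 1. Windows were compared by sequence alone, without regard to position in the gene, and the motif itself fills much of so short a window. These matches therefore do not say that the sites lie at corresponding places. For Mat2a no alternative gave a fold change, since its counts lie under the floor. The site lists carry no replicate columns, so no replicate could be left out of them.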
